A study of Mus musculus with 2 samples.

Results

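The 10 genes of heat shock proteins and chaperones were followed through the leukocytes of MC38 tumors. They were chosen by gene symbol, as 10 of the 32285 genes counted, and are Hspa1a, Hspa1b, Hspb1, Dnajb1, Hsph1, Hsp90aa1, Hspa8, Hspe1, Hspd1 and Hspa5. MC38 is a mouse colon cancer cell line, which was grown in both flanks of young adult male C57BL/6 mice. In both groups the right tumor received microwave ablation (MWA) at about 300 mm3, and CD45+ cells were sorted from the left tumor, which was not ablated, 8 days after MWA and sequenced with a droplet method that counts the 3′ ends of transcripts by unique molecular identifiers (UMIs). The MWA plus TIGIT group also received 3 intraperitoneal injections of an antibody against the checkpoint receptor TIGIT. By the labels these were given every 3 days from day 1. The MWA group received an isotype control antibody by the paper's description of its treatment groups. Each group was 1 library, and how many mice were behind it is not given in the sources used here. The design asks in which leukocytes these genes were used and whether their levels differed between the MWA plus TIGIT group and the MWA group.

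Heat shock proteins hold unfolded or newly made proteins and help them to fold, or hand them on for degradation. Some are made in most cells at all times, and others are switched on by the transcription factor HSF1 when heat, lack of oxygen, oxidation or misfolded protein strains the cytosol. Misfolded protein in the endoplasmic reticulum (ER) is met by another response, the unfolded protein response, whose best known target is Hspa5. Among the members, Hspa1a and Hspa1b encode the inducible cytosolic HSP70, Hspb1 a small heat shock protein, Dnajb1 a J-domain partner of HSP70, Hsph1 a nucleotide exchange factor of HSP70 and Hsp90aa1 the inducible form of cytosolic HSP90. Hspa8 encodes the constitutive HSP70, Hspe1 and Hspd1 the mitochondrial chaperonin pair HSP10 and HSP60, and Hspa5 the ER chaperone BiP.

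The promoters are shown first because they tell apart the members with HSF1-type letters from the member with ER stress letters. RefSeq windows on GRCm38.p6 matched 8 of the 10 members. The 250 bases before the start of transcription, for genes with several starts the one nearest the annotated gene start, were searched on both strands for the heat shock pairs GAANNTTC and TTCNNGAA, which can overlap each other, and for the ER stress element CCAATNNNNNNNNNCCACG. A heat shock pair was in 5 of the 8 windows, against 12.8% of the 32851 windows of all genes. The ER stress element was in 1 window, that of Hspa5, against 0.113% of all windows. Capitals mark these letters in the windows below, which run 5′ to 3′ along the gene.
Hspa1a, chr17:34972157-34972406, minus strand: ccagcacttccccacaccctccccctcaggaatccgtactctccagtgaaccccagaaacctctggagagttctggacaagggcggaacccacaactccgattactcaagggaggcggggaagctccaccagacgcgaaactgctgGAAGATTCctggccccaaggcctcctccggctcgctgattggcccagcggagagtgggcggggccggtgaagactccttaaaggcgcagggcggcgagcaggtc
Hspa1b, chr17:34959239-34959488, minus strand: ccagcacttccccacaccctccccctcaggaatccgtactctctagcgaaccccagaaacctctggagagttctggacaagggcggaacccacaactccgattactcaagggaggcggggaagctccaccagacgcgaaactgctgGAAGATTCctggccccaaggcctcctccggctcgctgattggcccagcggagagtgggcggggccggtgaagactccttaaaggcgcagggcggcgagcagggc
Hspb1, chr5:135887669-135887918, plus strand: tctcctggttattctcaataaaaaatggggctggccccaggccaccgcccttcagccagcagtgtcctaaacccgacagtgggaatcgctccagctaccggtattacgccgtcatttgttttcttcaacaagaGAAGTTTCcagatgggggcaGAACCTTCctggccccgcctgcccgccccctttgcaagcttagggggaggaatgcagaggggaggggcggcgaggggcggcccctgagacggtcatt
Hsph1, chr5:149636337-149636586, minus strand: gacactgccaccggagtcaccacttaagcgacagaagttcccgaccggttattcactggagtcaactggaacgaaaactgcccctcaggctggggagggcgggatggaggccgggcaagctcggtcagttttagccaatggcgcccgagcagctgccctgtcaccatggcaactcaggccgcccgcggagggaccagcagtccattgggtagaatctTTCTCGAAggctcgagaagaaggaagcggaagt
Hspe1, chr1:55087898-55088147, plus strand: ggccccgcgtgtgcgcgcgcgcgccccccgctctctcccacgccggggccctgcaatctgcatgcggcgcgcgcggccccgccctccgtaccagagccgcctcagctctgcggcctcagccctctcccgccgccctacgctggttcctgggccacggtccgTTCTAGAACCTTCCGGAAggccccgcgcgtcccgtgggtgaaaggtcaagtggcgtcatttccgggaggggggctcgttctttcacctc
Hspa5, chr2:34771840-34772089, plus strand: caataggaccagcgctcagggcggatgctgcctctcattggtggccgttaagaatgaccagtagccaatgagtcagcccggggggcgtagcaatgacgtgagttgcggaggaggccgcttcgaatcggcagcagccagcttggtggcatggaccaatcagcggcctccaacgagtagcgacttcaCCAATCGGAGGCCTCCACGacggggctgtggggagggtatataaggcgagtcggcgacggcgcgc
The windows of Hspa1a and Hspa1b differed at 3 of 250 positions and carried the same heat shock pair, 104 bases before the start. The window of Hspe1 held 3 overlapping pairs. Those of Dnajb1 and Hspd1 held neither kind of letters. A match describes letters only, and no match says nothing of the factor.

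By the annotation of GRCm38, the inducible HSP70 genes lie next to each other on chromosome 17 and their starts are 12918 bases apart, Hspa1a at chr17:34969190-34972156 and Hspa1b at chr17:34956436-34959238, both on the minus strand. Hspb1 lies at chr5:135887919-135889563 and Hsph1 at chr5:149614287-149636376, while Hspa5 lies at chr2:34771970-34777547. Hspd1 (chr1:55077835-55088243) and Hspe1 (chr1:55088132-55091307) are transcribed away from each other from starts 111 bases apart, and their gene models overlap there on opposite strands. Hspa1a overlaps the antisense gene Gm20481. The reads of near-identical copies may be split or lost in counting. Of the 90-base words in the last 500 bases of the transcript, 79.8% of those of Hspa8, 36.0% of those of Hspe1 and 7.06% of those of Hspb1 also occurred in other annotated genes, so the levels of Hspa8 and Hspe1 are uncertain. Hspa1a and Hspa1b shared no such word.

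The MWA library kept 9231 cells with 56808893 UMIs and the MWA plus TIGIT library 9127 cells with 67561412 UMIs, at medians of 5324 and 6338 UMIs per cell, and the members together held 187420 and 219701 UMIs. Of the barcode sequences, 28 occurred in the kept cells of both libraries. Clusters were formed without the members and without the other chaperone genes, and 24 classes named from marker genes had at least 50 cells in each library. Marker genes of tumor epithelium, fibroblasts, endothelium and red cells were nearly absent, each list summing to 1.04 to 3.31 UMIs per 1000000 UMIs (CPM). Levels below are CPM of a class, the UMIs of a gene over all UMIs of that class. With 1 library per group there was no replicate and no test between groups. The 95% intervals cover counting error only and not the variation between mice or libraries, and less RNA per cell cannot be told apart from fewer cells with it unless shares of cells are given. Transcripts abundant in macrophages (C1qa, C1qb, Apoe and Lyz2) stood in CD4 and CD8 T cells at 2.06% to 2.88% of their level in tumor-associated macrophage (TAM)-like cells, taken here as the level of free RNA.

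Of the 10 members, 5 were highest in the same class of macrophages in both libraries. In both libraries the class led by Ndrg1, Mmp12 and Hmox1, called Ndrg1 TAM-like, had the highest level of Hspa1a, Hspa1b, Hspb1, Hsph1 and Hsp90aa1 among the 24 classes. The intervals of the class were apart from those of every other class in both libraries for Hspa1a and Hspa1b, and in 1 of the libraries for each of the others. In the MWA library its interval for Hspb1 overlapped those of neutrophil-like cells and of interferon-induced TAM-like cells. Its interval for Hsph1 there (99.1 to 118) overlapped that of Slamf6 CD4 T-like cells (70.3 to 103) and the wide ones of B-like and Cx3cr1 CD8 T-like cells. It also overlapped that of Trdv4 gamma-delta T-like cells, which are not among the 24 classes. For Hsp90aa1 in the MWA plus TIGIT library it (1141 to 1197) overlapped that of neutrophil-like cells (864 to 1163), so in these 3 cases the highest class was not resolved. Ndrg1 and Hmox1 are known as genes induced by lack of oxygen and by heme or oxidation.

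**Figure D1:**
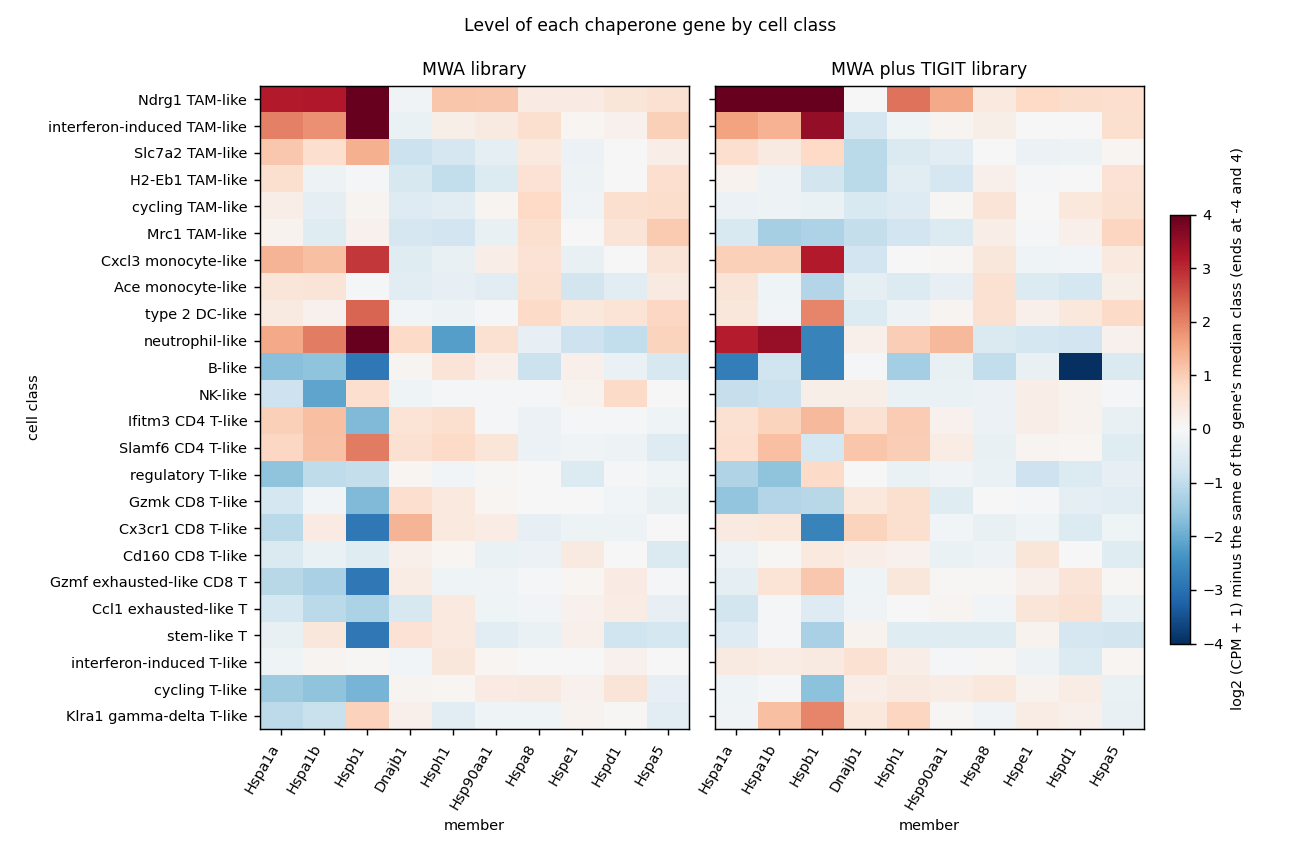
Heat maps of the 10 members (columns) in the 24 cell classes (rows), 1 panel per library. Colour is log2(CPM + 1) minus the same of the gene's median class in that library, with the colour ending at -4 and 4. Each column is therefore read on its own. The Ndrg1 TAM-like row on top has the highest values for Hspa1a, Hspa1b, Hsph1 and Hsp90aa1 in both panels. It reaches the upper end of the scale for Hspb1, as do neutrophil-like and interferon-induced TAM-like cells in the MWA panel.

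Hspa1a, the inducible HSP70, stood at 543.6 CPM (523 to 565) in Ndrg1 TAM-like cells of the MWA library and at 950.05 CPM (925 to 976) in those of the MWA plus TIGIT library, well apart from every other class. The next classes were interferon-induced TAM-like cells at 240.3 CPM in the MWA library and neutrophil-like cells at 396 CPM in the MWA plus TIGIT library. The median over the 24 classes was 59.2 CPM and 44.0 CPM. At the lower end, B-like cells held 3 UMIs and 1 UMI, while regulatory T-like cells were at 18.8 CPM and 18.5 CPM. Most neighbours in the order of classes did not differ beyond counting error, 21 of 23 pairs in the MWA library and 19 of 23 in the MWA plus TIGIT library having overlapping intervals.

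Hspa1b, the neighbouring copy with the same protein role, followed Hspa1a. Its level was 366 CPM and 607 CPM in Ndrg1 TAM-like cells, 162 CPM and 352 CPM in neutrophil-like cells, and 141 CPM and 82.1 CPM in interferon-induced TAM-like cells. Among T cell classes, Ifitm3 CD4 T-like cells were at 90.1 CPM and 57.8 CPM, above the 33.2 CPM and 26.2 CPM of H2-Eb1 TAM-like cells. Regulatory T-like cells were at 18.8 CPM and 9.27 CPM. Most neighbours in the order had overlapping intervals, 20 of 23 pairs in the MWA library and 21 of 23 in the MWA plus TIGIT library. In Ifitm3 CD4 T-like cells of the MWA library, the 1% of cells with most Hspa1b held 60.6% of its UMIs. With cells thinned to 1000 UMIs, 3.53% and 4.58% of them had a Hspa1b UMI. The share in H2-Eb1 TAM-like cells was 2.26% and 1.67%, with overlapping intervals. Over the 48 class and library sums the Pearson correlation of log2(CPM + 1) between Hspa1a and Hspa1b was 0.89, a description over points that share libraries and cell classes.

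Hspb1, the small heat shock protein gene, was low outside myeloid cells and also in several myeloid classes. It was at 214 CPM (201 to 228) and 509 CPM (491 to 528) in Ndrg1 TAM-like cells and at 183 CPM and 72.9 CPM in interferon-induced TAM-like cells, and Cxcl3 monocyte-like cells were at 49.8 CPM and 56.9 CPM. The median class was at 6.19 CPM and 5.40 CPM. Near or under it were Mrc1 TAM-like cells at 7.15 CPM and 1.70 CPM and H2-Eb1 TAM-like cells at 5.91 CPM and 2.88 CPM. So were cycling TAM-like cells at 6.71 CPM and 4.27 CPM and Ace monocyte-like cells at 6.00 CPM and 1.81 CPM. B-like and Cx3cr1 CD8 T-like cells held no Hspb1 UMI in either library.

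Hsph1, the exchange factor of HSP70, was high in the Ndrg1 TAM-like class and in Slamf6 and Ifitm3 CD4 T-like cells. The other TAM-like cells stood at 33.4 CPM and 30.8 CPM, under the median class at 50.1 CPM and 45.1 CPM. Regulatory T-like cells, at 46.2 CPM and 37.6 CPM, were also under the median class. Ndrg1 TAM-like cells were at 108 CPM (99.1 to 118) and 206 CPM (194 to 218). Slamf6 CD4 T-like cells were at 85.6 CPM and 89.7 CPM and Ifitm3 CD4 T-like cells at 78.6 CPM and 92.4 CPM. Neutrophil-like cells were at 10.2 CPM and 89.3 CPM and Klra1 gamma-delta T-like cells at 37.5 CPM and 81.9 CPM. Of 23 neighbour pairs in the order of Hsph1, 23 in the MWA library and 22 in the MWA plus TIGIT library had overlapping intervals. Hsp90aa1, the inducible HSP90, was at 833 CPM and 1169 CPM in Ndrg1 TAM-like cells, at 599 CPM and 1005 CPM in neutrophil-like cells, and lowest in H2-Eb1 TAM-like cells at 269.97 CPM and 255 CPM. So macrophage classes stood at both ends of its order.

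**Figure D2:**
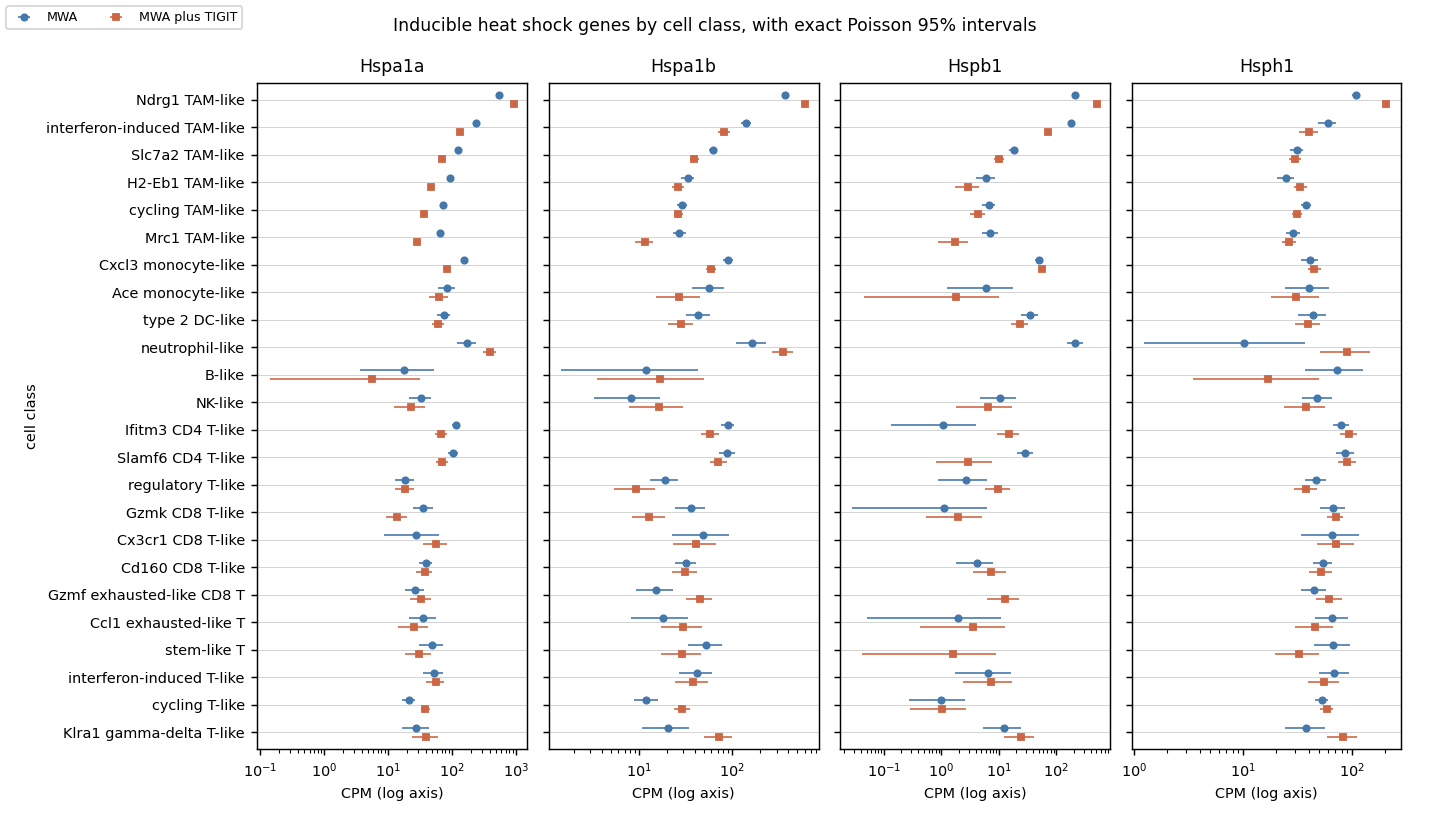
Levels in CPM, on a log axis, of Hspa1a, Hspa1b, Hspb1 and Hsph1 in the cell classes of the MWA and MWA plus TIGIT libraries, with exact Poisson 95% intervals that cover counting error only. Classes at 0 UMIs are not drawn, and the Ndrg1 TAM-like points lie farthest to the right in each panel, with intervals that overlap those of other classes for Hspb1 and Hsph1 in the MWA library.

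Dnajb1, the J-domain partner that stimulates HSP70, had another order among cell types. It was highest in Cx3cr1 CD8 T-like cells at 185 CPM in the MWA library and in Slamf6 CD4 T-like cells at 166 CPM in the MWA plus TIGIT library. The lowest levels were in TAM-like classes, Slc7a2 TAM-like cells at 38.9 CPM and H2-Eb1 TAM-like cells at 35.7 CPM. All 23 neighbour pairs in its order had overlapping intervals in both libraries, so the top class was not resolved from the next. Over the 48 sums its correlation with Hspa1a was -0.14.

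Hspa8, the constitutive HSP70, was present at 565 CPM or more in every class. Cycling TAM-like cells were highest in the MWA library at 1825 CPM and Ace monocyte-like cells in the MWA plus TIGIT library at 1714 CPM, and B-like cells were lowest at 581 CPM and 565 CPM. Hspe1 and Hspd1, which work together in mitochondria, were led by type 2 DC-like cells (618 CPM) and by NK-like cells (171 CPM) in the MWA library and both by Ndrg1 TAM-like cells (736 CPM and 184 CPM) in the MWA plus TIGIT library. Of 23 neighbour pairs in each order, 22 or 23 had overlapping intervals. Hspa5, the ER chaperone, was highest in Mrc1 TAM-like cells in both libraries, at 847 CPM and 748 CPM, and lowest in stem-like T cells, at 251 CPM and 249 CPM.

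Within each library, macrophage-like and monocyte-like cells together were compared with T and NK-like cells. Of the 10 members, 3 were at least 2-fold higher in the myeloid cells of both libraries, against 20% of all 12762 genes compared, and none was 2-fold lower, against 15.1%. The members' count was therefore close to the share of all genes and is read as a list of levels only. Hspa1a was at 159 CPM in myeloid cells and 44.6 CPM in T and NK-like cells of the MWA library, and at 166 CPM and 38.3 CPM in the MWA plus TIGIT library, log2 ratios of 1.83 and 2.11. Hspb1 had ratios of 3.30 and 3.66 and Hspa1b of 1.39 and 1.64. These myeloid levels include the Ndrg1 TAM-like class. TAM-like cells outside it had Hspa1a at 98.3 CPM and 53.0 CPM, Hspa1b at 44.4 CPM and 30.6 CPM and Hspb1 at 21.0 CPM and 9.71 CPM. T and NK-like cells had Hspa1b at 34.0 CPM and 33.3 CPM and Hspb1 at 4.81 CPM and 5.94 CPM. For Hspa1b these levels were close in the MWA plus TIGIT library, and no interval was made for their difference, so their order is not resolved. Hspa5 was higher by 0.94 and 0.83 and Dnajb1 lower, at -0.83 and -1.12, neither 2-fold in both libraries. Hspa8 had ratios of 0.58 and 0.33 and Hsph1 of -0.42 and -0.20. Hspe1, Hspd1 and Hsp90aa1 lay between -0.13 and 0.16 in the libraries.

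In CD4 and CD8 T cells together, Hspa1a reached 34.4% and 21.4% of its level in TAM-like cells and Hspb1 10.9% and 8.72%. For Hspa8 it was 60.4% and 72.0%. All of these shares were above the 2.06% to 2.88% of these macrophage transcripts C1qa, C1qb, Apoe and Lyz2.

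Of the other chaperones, many on the ER list were higher in myeloid cells beside Hspa5. All 21 listed ER chaperones and unfolded protein response genes were compared, 10 were at least 2-fold higher in myeloid cells of both libraries and 0 were lower. The list summed to 3365 CPM in myeloid cells and 1559 CPM in T and NK-like cells of the MWA library, and to 3559 CPM and 1741 CPM in the MWA plus TIGIT library. The median log2 ratio of the list was 1.07 and 0.91, beside 0.03 and -0.06 for all genes. Calr and Canx, lectin chaperones of glycoproteins, had log2 ratios of 1.33 and 1.31 and of 1.52 and 1.45. P4hb, a protein disulfide isomerase, had 1.92 and 1.86. Of 34 cytosolic chaperones and co-chaperones compared, 3 were higher, among them Bag3, which links HSP70 to autophagy, at 1.91 and 2.04, and 2 were lower, among them Dnaja4 at -5.21 and -5.15. Of 31 proteasome subunits 0 passed in either direction. Immediate early genes, which cell handling is known to induce, were also higher in myeloid cells, 11 of 20 higher and 2 lower, with sums of 9915 CPM against 4722 CPM and of 8714 CPM against 4757 CPM. Their part in the levels of the inducible members was not tested.

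Within the TAM-like cells, the Ndrg1 class was set against the other TAM-like classes in each library. This comparison was chosen after the data had been seen, and a class made by clustering is not tested against the rest, though the members took no part in the clustering. The class was 678 of 3705 TAM-like cells (18.3%) in the MWA library and 687 of 3771 (18.2%) in the MWA plus TIGIT library. Of the 10 members, 5 were at least 2-fold higher in it in both libraries, against 2.68% of the 11609 genes compared, and 0 were lower, against 11.7%. They were Hspa1a, Hspa1b, Hspb1, Hsph1 and Hsp90aa1. Dnajb1, also a gene of the heat shock response, was not, with log2 ratios of 0.48 and 0.86. The median log2 ratio of the members was 0.86 and 1.34, and that of all genes compared was -0.41 and -0.43.

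Hspa1a was at 98.3 CPM in the other TAM-like cells of the MWA library and at 53.0 CPM in those of the MWA plus TIGIT library, which put the Ndrg1 class higher by 2.47 (2.39 to 2.54) and 4.16 (4.09 to 4.24) on the log2 scale. Hspb1 stood at 21.0 CPM and 9.71 CPM in the others, with ratios of 3.35 and 5.71, and Hspa1b at 44.4 CPM and 30.6 CPM, with ratios of 3.04 and 4.31. The signed ratio was higher in the MWA plus TIGIT library for all 10 members. Hsph1 had ratios of 1.70 and 2.74 and Hsp90aa1 of 1.24 and 1.81. The mitochondrial pair had 0.45 and 0.88 for Hspe1 and 0.13 and 0.56 for Hspd1. The constitutive Hspa8 (-0.30 and 0.12) and the ER chaperone Hspa5 (-0.10 and 0.11) were lower in the MWA library and higher in the MWA plus TIGIT library.

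**Figure D3:**
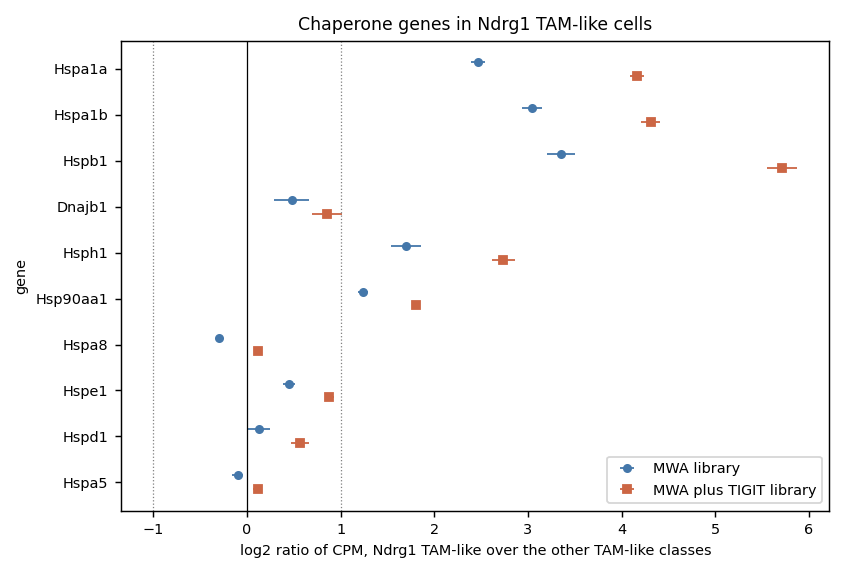
Log2 ratio of the level in Ndrg1 TAM-like cells over that in the other TAM-like cells (horizontal axis) for each member, in the MWA and the MWA plus TIGIT library. Bars are 95% counting intervals and dotted lines stand at 2-fold, and Hspb1, Hspa1b and Hspa1a lie farthest to the right in both libraries, each farther in the MWA plus TIGIT library.

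The share of each gene's TAM-like UMIs that fell in this class was also counted. It held 47.2% of the Hspa1a UMIs of TAM-like cells in the MWA library and 74.0% in the MWA plus TIGIT library. For Hspb1 the shares were 62.3% and 89.3%, for Hspa1b 57.1% and 75.9% and for Hsph1 34.4% and 51.4%. For Hspa5 they were 13.1% and 14.6%. Of all UMIs of TAM-like cells the class held 4659702 of 33479745 in the MWA library and 5782860 of 42237979 in the MWA plus TIGIT library. The class kept macrophage transcripts at a lower level than the other TAM-like classes, with C1qb at 3230 CPM and 3910 CPM against 5162 CPM or more in each of the others. It was high in Ndrg1, at 148 CPM and 156 CPM, and in the glucose transporter gene Slc2a1, at 299 CPM and 314 CPM. Its median share of mitochondrial UMIs was 0.703% and 0.833%, the lowest of the TAM-like classes in each library. The class also had the fewest genes per cell of the TAM-like classes, with medians of 1730.5 and 1993, and the most of the nuclear transcript Malat1, at 15648 CPM and 16143 CPM. The part of these differences in the levels of the members was not tested.

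The other chaperones did not share this pattern in the class. Of 33 cytosolic chaperones and co-chaperones compared, 0 were at least 2-fold higher in Ndrg1 TAM-like cells of both libraries and 2 were lower, Fkbp4, a co-chaperone of steroid receptors, at -1.35 and -1.07 among them. On the ER list 1 gene was higher, Ddit3, a transcription factor of ER stress, at 1.54 and 1.77, and 1 was lower, Dnajc3 at -1.11 and -1.21. Of the 20 immediate early genes 5 were lower and 0 higher, and the list summed to 8140 CPM in the class against 10134 CPM in the others of the MWA library and to 7047 CPM against 8792 CPM in the MWA plus TIGIT library. The median log2 ratios were -0.53 and -0.47 for the cytosolic list, -0.53 and -0.57 for the ER list and -0.16 and -0.18 for the immediate early genes, beside -0.41 and -0.43 for all genes.

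The UMIs of Hspa1a, Hspa1b and Hspb1 lay in few cells. The median Ndrg1 TAM-like cell held no UMI of Hspa1a, while 82 cells (12.1%) of the MWA library and 146 cells (21.3%) of the MWA plus TIGIT library held 10 or more, up to 73 and 219 UMIs in a cell. The 10% of cells with most Hspa1a held 67.8% and 67.6% of its UMIs in the class. Hspb1 was more uneven still, with 31 cells (4.57%) and 61 cells (8.88%) at 10 UMIs or more and 96.1% and 94.03% of its UMIs in the top 10% of cells. Hspa8 and Hspa5, by contrast, had medians of 7 and 9 UMIs and of 3 and 4 UMIs per cell, and Hsp90aa1 of 2 and 3 UMIs.

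To compare shares of cells at equal depth, each cell was thinned to 1000 UMIs. A Hspa1a UMI was then found in 23.2% (20.1 to 26.6) of Ndrg1 TAM-like cells of the MWA library and in 27.6% (24.3 to 31.1) of those of the MWA plus TIGIT library, whose intervals overlap. Without thinning the shares were 42.9% and 48.6%. The median depth of the class was 6733 UMIs in the MWA library and 8338 UMIs in the MWA plus TIGIT library, and 6 and 2 cells too shallow to thin were left out. The thinned shares were 15.6% and 7.78% in interferon-induced TAM-like cells, 7.23% and 5.28% in Slc7a2 TAM-like cells and 4.85% and 2.17% in Mrc1 TAM-like cells, and 1.40% and 1.02% in regulatory T-like cells, the lowest of these. For Hspb1 the thinned shares in Ndrg1 TAM-like cells were 7.44% (5.57 to 9.69) and 11.1% (8.84 to 13.7), against unthinned shares of 15.2% and 19.7%. The MWA plus TIGIT library thus had a higher share of Ndrg1 TAM-like cells with these UMIs within overlapping intervals, and the larger gap was in cells with 10 or more UMIs, which were not set to equal depth.

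Within Ndrg1 TAM-like cells, Hspa1a and Hspa1b were often found in the same cells. The Pearson correlation across cells of log2(UMIs per 10000 + 1) was 0.78 over 678 cells of the MWA library and 0.84 over 687 cells of the MWA plus TIGIT library. It was 0.49 and 0.63 between Hspa1a and Hsp90aa1, 0.44 and 0.54 between Hspa1a and Hsph1, and 0.17 and 0.22 between Hspa1a and Hspa5. Between Hspa1a and the constitutive Hspa8 it was 0.42 and 0.55, with Hspe1 0.31 and 0.42 and with Hspd1 0.27 and 0.38. With Hspb1 it was 0.31 and 0.31 and with Dnajb1 0.25 and 0.24. The values thus did not separate the inducible members from the others. Cells share library and depth, and these values are descriptions. The same pair of HSP70 genes correlated at 0.80 and 0.74 in Slamf6 CD4 T-like cells, at 0.61 and 0.43 in Gzmk CD8 T-like cells and at 0.51 and 0.48 in Mrc1 TAM-like cells.

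The TAM-like cells were also ordered without clusters, by the UMIs that 5 genes known to be induced by lack of oxygen (Ndrg1, Slc2a1, Bnip3, Ero1l and Egln3) had in each cell after thinning to 1000 UMIs. This order was chosen after the data had been seen. In the MWA library, Hspa1a stood at 123 CPM in cells with 0 of these UMIs, at 221 CPM with 1, at 329 CPM with 2, at 512 CPM with 3 and at 416 CPM with 4 or more. In the MWA plus TIGIT library it stood at 97.4 CPM, 276 CPM, 391 CPM, 1136 CPM and 1034 CPM. So over all TAM-like cells of both libraries Hspa1a was higher in every bin with hypoxia UMIs than in the bin with 0, and the range was wider in the MWA plus TIGIT library. The median depth of the cells was 8938 and 11048 UMIs in the bin with 0 and 6365 and 8531 UMIs in the last bin. Outside the Ndrg1 class Hspa1a stood at 86.8 CPM, 146 CPM, 53.9 CPM, 471 CPM and 360 CPM in the MWA library and at 41.4 CPM, 81.4 CPM, 72.4 CPM, 493 CPM and 517 CPM in the MWA plus TIGIT library. The bin with 2 was thus under the bin with 0 there in the MWA library, and the last bins held 13 and 8 cells.

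The log2 ratio of Hspa1a between the libraries, MWA plus TIGIT over MWA, was -0.34 in cells with 0 of these UMIs and 1.15 and 1.31 in cells with 3 and with 4 or more. The last bins were small, at 84 and 90 cells with 3 UMIs and 64 and 56 cells with 4 or more. Outside the Ndrg1 class the ratio was -1.07 and -0.85 in cells with 0 and with 1 of these UMIs, and in the cells with 3, which were 23 and 29, Hspa1a was at 471 CPM and 493 CPM, a ratio of 0.07 (-0.32 to 0.46). There the intervals of the ratio also included 0 in the cells with 2 and with 4 or more. For Hsph1 the level went from 37.8 CPM to 69.7 CPM over the 5 bins in the MWA library, by way of 120 CPM in the fourth, and from 40.5 CPM to 227 CPM in the MWA plus TIGIT library. Hspb1 went from 27.3 CPM to 88.3 CPM, by way of 220 CPM, and from 40.8 CPM to 465 CPM. Outside the Ndrg1 class the levels of these genes went up and down over the bins in the MWA library, and the bins with 2 or more hypoxia UMIs held from 0 to 48 UMIs of each gene. Hspb1 was at 10.6 CPM, 71.2 CPM, 4.49 CPM, 165 CPM and 191 CPM there in the MWA library, and the last bin of the MWA plus TIGIT library held 0 UMIs of Hspb1 and 1 UMI of Hsph1. Hspa5 lay between 636 CPM and 741 CPM in the MWA library and between 559 CPM and 830 CPM in the MWA plus TIGIT library, where the last bin was above the others.

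**Figure D4:**
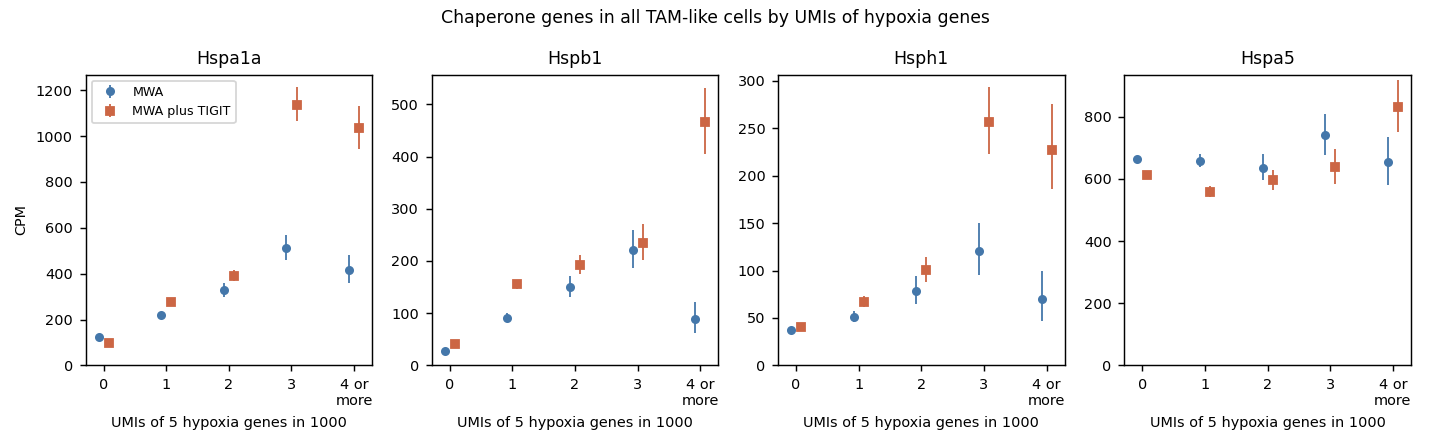
Levels in CPM (linear axis) of Hspa1a, Hspb1, Hsph1 and Hspa5 in all TAM-like cells, by the UMIs of 5 hypoxia genes in a cell thinned to 1000 UMIs (0, 1, 2, 3, 4 or more), for the MWA and MWA plus TIGIT libraries with exact Poisson 95% intervals. Hspa1a goes from 97.4 CPM to 1034 CPM in the MWA plus TIGIT library and from 123 CPM to 416 CPM in the MWA library, while Hspa5 lies between 559 CPM and 830 CPM throughout.

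Between the libraries, each member was compared in each class. A pair was called where the fold between libraries was at least 1.5 and its 95% counting interval excluded 1, if the gene had at least 20 UMIs in both libraries together. Of 240 pairs of a member and a class, 223 had enough UMIs, 15 of these (6.73%) were higher in the MWA plus TIGIT library and 26 (11.7%) lower, against 3.28% and 1.56% of the pairs of all genes. The calls were unevenly spread over the members. Hspa1a had 3 higher and 8 lower, Hspa1b 5 and 8, and Hspb1 3 and 7. The remaining 7 members had 4 higher and 3 lower calls in all, and Hspa8 and Hspd1 had none in either direction.

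Ndrg1 TAM-like cells were the class with most calls upward. In them 4 of the 10 members were higher in the MWA plus TIGIT library, against 2.06% of all genes in the class, and 0 were lower, against 1.81%. Hspa1a went from 2533 UMIs to 5494 UMIs, a log2 ratio of 0.81 (0.74 to 0.87). Hspa1b went from 1707 UMIs to 3510 UMIs, a ratio of 0.73 (0.64 to 0.81), which became -0.27 among cells with at most 5000 UMIs. Hspb1 went from 999 UMIs to 2946 UMIs, a ratio of 1.25 (1.14 to 1.35), and Hsph1 from 505 UMIs to 1189 UMIs, a ratio of 0.92 (0.77 to 1.08). No single cell held more than 5.70% of the Hspb1 UMIs or 3.99% of the Hspa1a UMIs of the class in the MWA plus TIGIT library.

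The other members were closer between the libraries in that class. Hsp90aa1 had a ratio of 0.49 (0.43 to 0.55), Hspd1 0.38 (0.24 to 0.53) and Hspe1 0.35 (0.28 to 0.42), each under the fold required. Dnajb1 was at 0.23 (0.01 to 0.44), Hspa8 at 0.16 (0.11 to 0.21) and Hspa5 at 0.05 (-0.02 to 0.12). The median of the 10 members was 0.44, beside 0.03 for all genes. The depth per cell also differed, with the medians of 6733 and 8338 UMIs given above, and its part in the ratios was not tested beyond the limits on UMIs.

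**Figure D5:**
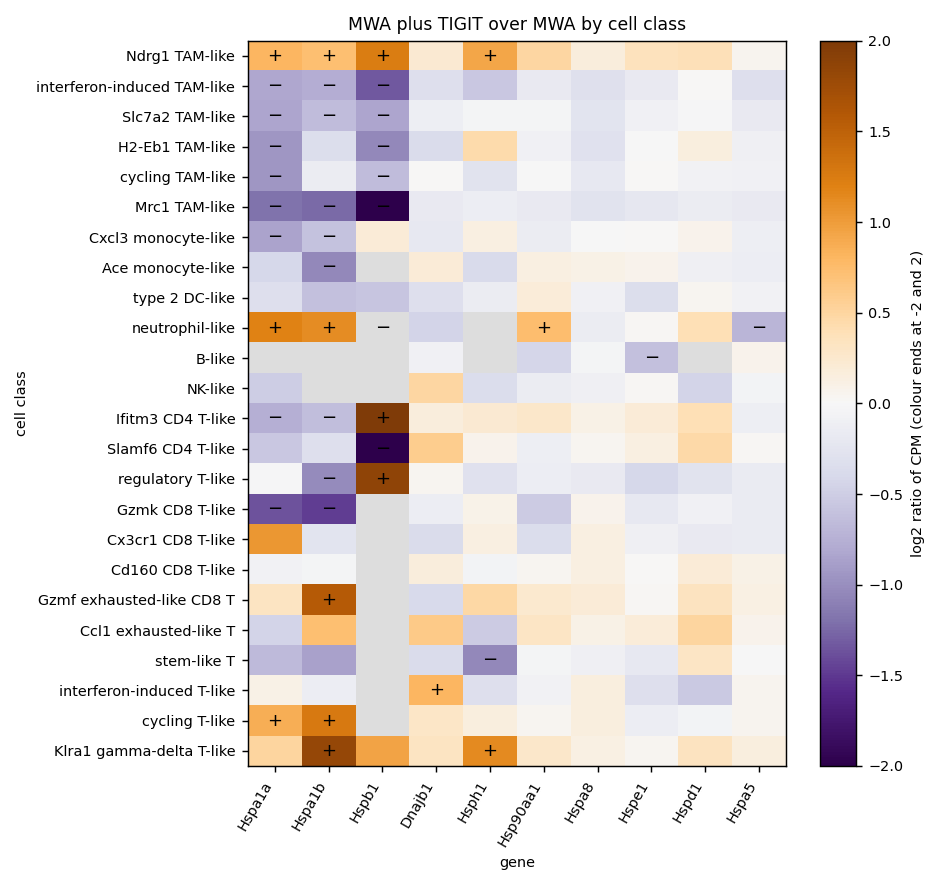
Heat map of the log2 ratio of CPM, MWA plus TIGIT over MWA, for the 10 members (columns) in the 24 cell classes (rows). A plus or minus sign marks a pair called higher or lower, grey marks pairs with under 20 UMIs or at 0, and the 4 plus signs of Ndrg1 TAM-like cells stand beside minus signs in the other TAM-like classes.

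In each of the other 5 TAM-like classes, 2 or 3 members were lower in the MWA plus TIGIT library and 0 higher. Of all genes, 1.63% were lower and 2.6% higher in interferon-induced, 1.54% and 2.27% in Slc7a2, 1.27% and 2.2% in H2-Eb1, 1.12% and 1.56% in cycling and 1.22% and 1.66% in Mrc1 TAM-like cells. Hspa1a was lower in all of them. It went from 240.3 CPM to 136 CPM in interferon-induced TAM-like cells, a log2 ratio of -0.83 (-1.03 to -0.62), and from 127 CPM to 71.5 CPM in Slc7a2 TAM-like cells, also -0.83 (-0.98 to -0.68). From 93.1 CPM to 48.1 CPM in H2-Eb1 TAM-like cells and from 72.1 CPM to 37.2 CPM in cycling TAM-like cells, the ratio was -0.95 in both. In Mrc1 TAM-like cells it went from 65.7 CPM to 28.7 CPM, a ratio of -1.19 (-1.45 to -0.94). Over all TAM-like cells together these differences met those of the Ndrg1 class, and Hspa1a was at 160 CPM and 176 CPM, a ratio of 0.13, which was not called.

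Hspa1b was lower in Mrc1 (-1.24), interferon-induced (-0.78) and Slc7a2 (-0.65) TAM-like cells, and in cycling TAM-like cells it was at 29.2 CPM and 26.4 CPM. Hspb1 was lower in all 5 classes, but on few cells. In interferon-induced TAM-like cells it went from 349 UMIs to 181 UMIs, a ratio of -1.33, and 180 of the 349 UMIs were in 1 cell. Without the 1% of cells with the highest share of member UMIs the ratio there was 0.50, and that of cycling TAM-like cells went from -0.65 to 0.94. In Mrc1 and H2-Eb1 TAM-like cells 1 cell held 28 of 42 and 16 of 29 UMIs. Over all TAM-like cells Hspb1 was at 47.9 CPM and 78.1 CPM, a ratio of 0.71 and the only member called there, against 1.23% of all genes higher and 1.6% lower.

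In Cxcl3 monocyte-like cells 2 of 10 members were lower, against 1.47% of all genes, and 0 higher, against 3.06%, namely Hspa1a from 154 CPM to 85.6 CPM (-0.85) and Hspa1b from 90.9 CPM to 59.6 CPM (-0.61). Among cells with at most 5000 UMIs these ratios were 0.082 and 0.47. Ace monocyte-like cells had Hspa1b at 28 UMIs and 15 UMIs, called lower, against 2.19% of all genes, and 0 members higher, against 3.52%.

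Neutrophil-like cells, a small and shallow class of 196966 UMIs and 179112 UMIs in all, had 3 members higher and 2 lower, against 4.8% and 5.72% of all genes. Among markers of other cell types, the class had the macrophage gene C1qb at 1858 CPM and 1267 CPM and the T cell gene Cd3e at 117 CPM and 89.3 CPM, and the part of such RNA in the members' values was not tested. Hspa1a went from 34 UMIs to 71 UMIs, a ratio of 1.20 (0.59 to 1.83), Hspa1b from 32 UMIs to 63 UMIs (1.11) and Hsp90aa1 from 118 UMIs to 180 UMIs (0.75). Hspa5 went from 150 UMIs to 83 UMIs (-0.72). Hspb1 had 42 UMIs in the MWA library, 40 of them in 1 cell, and 0 in the MWA plus TIGIT library, which is at least 12.7-fold lower against a floor of 3 counts per library.

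The T cell classes were mixed and rested on fewer UMIs. Ifitm3 CD4 T-like cells had Hspa1a at 115 CPM and 68.4 CPM (-0.75) and Hspa1b at 90.1 CPM and 57.8 CPM (-0.64), 2 of 10 members lower against 1.16% of all genes. A further member, Hspb1, was called higher there against 4.47%, with 19 of its 21 UMIs in 1 cell. When CD4 T cells were picked by marker UMIs instead of clusters, all CD4 T cells had ratios of 0.16 (-0.20 to 0.52) for Hspa1a and 0.68 (0.31 to 1.07) for Hspa1b. The clusters together had -0.63 and -0.57. So the direction of Hspa1b depended on how CD4 T cells were picked, and that of Hspa1a was not resolved in the cells picked by markers. Slamf6 CD4 T-like cells had Hspa1a at 105 CPM and 71.4 CPM, a ratio of -0.56 short of the fold. A single member was called lower against 1.71% and 0 higher against 3.17%, Hspb1, with 28 of 37 UMIs in 1 cell.

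In Gzmk CD8 T-like cells 2 members were lower, against 2.54% of all genes, and 0 higher, against 3.72%. They were Hspa1a from 32 UMIs to 28 UMIs where the class as a whole held 890881 UMIs and 2008577 UMIs (35.9 CPM to 13.9 CPM) and Hspa1b from 32 UMIs to 26 UMIs (35.9 CPM to 12.9 CPM). In cycling T-like cells 2 were higher, against 5.76%, and 0 lower, against 1.08%, Hspa1a from 85 UMIs to 148 UMIs (0.87) and Hspa1b from 48 UMIs to 111 UMIs (1.28), and Hspa1b was at -0.19 among cells with at most 5000 UMIs. Klra1 gamma-delta T-like cells had 2 higher, against 2.71%, and 0 lower, against 1.89%, Hspa1b from 13 UMIs to 36 UMIs (1.82) and Hsph1 from 24 UMIs to 41 UMIs (1.13), and the latter was 0.03 without the 1% of cells with the highest share of member UMIs. Gzmf exhausted-like CD8 T cells had Hspa1b alone higher, against 5.1%, and 0 lower, against 0.901%. It went from 21 UMIs to 39 UMIs (1.56), 18 of them in 1 cell. The directions of HSP70 thus differed among T cell classes.

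The remaining calls were in 4 other classes. Stem-like T cells had Hsph1 lower, from 30 UMIs to 20 UMIs (-1.03), against 1.19% of all genes, and 0 members higher, against 3.89%. Interferon-induced T-like cells had Dnajb1 higher, from 42 UMIs to 81 UMIs (0.81), against 4.53%, and 0 members lower, against 1.27%. B-like cells had Hspe1 lower, from 88 UMIs to 61 UMIs (-0.61), against 3.89%, and 0 members higher, against 2.65%. Regulatory T-like cells had Hspa1b lower, from 35 UMIs to 17 UMIs (-1.02), against 1.91%, and Hspb1 higher, from 5 UMIs to 18 UMIs (1.87), against 2.71%, the latter at -1.30 when called doublets were kept. No member was called in 5 classes. There the shares of all genes called higher and lower were 4.05% and 1.61% in type 2 DC-like cells, 3.97% and 1.21% in NK-like cells, 4.55% and 1.02% in Cd160 CD8 T-like cells, 2.3% and 2.01% in Cx3cr1 CD8 T-like cells and 4.91% and 1.44% in Ccl1 exhausted-like T cells.

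Nearly all of the wider chaperone lists were not called between the libraries in Ndrg1 TAM-like cells. This held for most genes there, with 2.06% of all genes called higher and 1.81% lower, so the counts are read as a list only. Of 30 cytosolic chaperones and co-chaperones with enough UMIs, 1 was higher, Dnaja1, a J-domain partner of HSP70, at 0.62, and 0 were lower. Of 14 chaperonin CCT and prefoldin genes, 21 ER genes, 10 mitochondrial genes and 31 proteasome subunits, 0 were called in either direction. Of 20 immediate early genes 1 was lower, Nr4a1 at -0.71, and 0 were higher, and the list summed to 8140 CPM and 7047 CPM. The median log2 ratio was 0.10 for the cytosolic list and 0.03 for the ER list, beside 0.03 for all genes and 0.44 for the members.

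Conventional CD4 T cells, Ifitm3 and Slamf6 CD4 T-like together, were also set against regulatory T-like cells, a comparison chosen after the data had been seen. At least 2-fold higher in both libraries were 2 of the 10 members, against 1.89% of 8585 genes, and 0 were lower, against 7.8%. Hspa1a was at 111 CPM in conventional CD4 T cells against 18.8 CPM in regulatory T-like cells of the MWA library, and at 69.8 CPM against 18.5 CPM in the MWA plus TIGIT library, log2 ratios of 2.56 and 1.91. Hspa1b had ratios of 2.25 and 2.80. Hsph1 was at 0.82 and 1.28, Dnajb1 at 0.49 and 0.85 and Hspe1 at 0.47 and 1.04, while Hspa8 was at -0.25 and 0.00. The levels in conventional CD4 T cells lay in few cells, since the 1% of cells with most Hspa1a held 51.2% and 59.8% of its UMIs in Ifitm3 CD4 T-like cells and 51.5% and 53.6% in Slamf6 CD4 T-like cells. In cells thinned to 1000 UMIs, the share with a Hspa1a UMI was 4.47% and 3.17% in Ifitm3 CD4 T-like cells and 5.44% and 3.69% in Slamf6 CD4 T-like cells, beside 1.40% and 1.02% in regulatory T-like cells. Unthinned, these shares were 7.29% and 5.99%, 6.38% and 6.55%, and 3.42% and 2.35%.

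Lastly, the genes whose levels were most like a member's over the 48 class and library sums were listed for Hspa1a and Hspa5, out of 7898 genes that reached 20 CPM in some class of both libraries. For Hspa1a they were Hspa1b (0.89), Slc2a1 (0.79), Hmox1 (0.78), Card19 (0.78) and Clec4d (0.76). For Hspa5 they included Creb5 (0.90), Spint1 (0.90), Tcirg1 (0.89) and Clic4 (0.89). The correlation between Hspa1a and Hspa5 themselves was 0.55. These correlations share libraries and classes and are given as descriptions.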

How the data were processed

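CD45+ cells of 1 library per group were measured by droplet 3′ single-cell RNA sequencing. The deposited files hold raw UMI counts for 32285 genes in each barcode. The authors produced them on GRCm38 using Cell Ranger, version 6.1.1 by the submitters' processing notes and 4.0.0 by the file headers, not normalized. There were 10217 barcodes with 66152465 UMIs in the MWA library and 10190 with 78751205 in the MWA plus TIGIT library. Barcodes with under 200 genes (1 and 1) or over 10% mitochondrial UMIs (179 and 276) were left out. The study names a limit of 5000 UMIs, which 55.2% and 60.3% of the barcodes exceed, so it was used as an alternative only. Doublets were called by a nearest-neighbour score against simulated doublets, which made up 0.25 of the points on 20 principal components, at 0.8% per 1000 barcodes (806 and 786 removed), in place of the caller the authors used.

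Integration and clustering used R 4.3.3 and Seurat 5.3.0 (2000 variable features, 3000 integration features, 40 principal components and resolution 0.1 for all cells, 30 components and resolutions 1 and 0.8 for T and NK cells and for myeloid cells). The members, the other chaperones and the immediate early genes were left out of the features. Names were rebuilt from marker lists, and a difference from the study may come from them. Of 35 clusters, 5 stayed unnamed (431 and 538 cells), and 27 classes were named.

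Sums of UMIs per class and library were made with pandas 2.3.3, numpy 2.4.6 and scipy 1.17.1 under Python 3.11.15. CPM have exact Poisson, ratios exact conditional binomial and shares exact binomial (Clopper-Pearson) 95% intervals. These cover counting error only, and ratios were checked on simulated data. With 1 library per group no test was run. A gene was called between libraries at 1.5-fold with at least 20 UMIs in both libraries together, and within a library at 2-fold in both libraries, each with an interval excluding 1. Alternatives were other limits on UMIs and mitochondrial share, doublets kept, TMM factors of edgeR 4.0.16, trimmed cells, no minimum, another total, marker gates and other thinning. All 10 members are named, from the other lists at most the 3 highest and 3 lowest, and the 5 genes most like Hspa1a and Hspa5, of which 1 is not reported here. The members and lists were chosen with earlier results of these data known. Every column used belongs to a mapped sample.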

Additional observations from a re-analysis of the deposited data

Results flagged for a closer look

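For 4 members the ratio between the libraries, MWA plus TIGIT over MWA on the log2 scale, was called in opposite directions in different classes. In each direction the class with most UMIs among those called is given. Hspa1a was at 0.81 (0.74 to 0.87) in Ndrg1 TAM-like cells and at -0.83 (-0.98 to -0.68) in Slc7a2 TAM-like cells. Hspa1b was at 0.73 (0.64 to 0.81) in Ndrg1 TAM-like cells and at -0.65 (-0.86 to -0.44) in Slc7a2 TAM-like cells, and the former was -0.27 among cells with at most 5000 UMIs. Hspb1 was at 1.25 (1.14 to 1.35) in Ndrg1 TAM-like cells and at -1.33 (-1.60 to -1.07) in interferon-induced TAM-like cells, where 1 cell held 180 of the 349 UMIs of the MWA library and the ratio was 0.50 without the 1% of cells with the highest member share. Hsph1 was at 0.92 (0.77 to 1.08) in Ndrg1 TAM-like cells and at -1.03 (-1.93 to -0.17) in stem-like T cells. With 1 library per group these differences between classes were not tested.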

How the results depend on the processing

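No paired analysis was possible because each group is 1 library, and there was no replicate to leave out. Of the 41 calls between libraries, 40 could be given a value under the alternatives on all cells, the exception being Hspb1 in neutrophil-like cells with 0 UMIs in 1 library. Of these, 40 were still called with a limit of 5% mitochondrial UMIs, with no minimum of UMIs and with a total without members and mitochondrial genes, 39 with TMM factors, which moved log2 ratios by -0.16 to 0.11 over the classes, 31 with called doublets kept and 26 without the 1% of cells with the highest member share. With at most 5000 UMIs per cell, where fewer cells remained, 25 had a value and 12 were still called. The count of lower pairs, 26, became 7 at that limit, and the count of higher pairs, 15, became 23 with doublets kept. At the limit of 5000 UMIs the direction turned for Hspa1a (0.082) and Hspa1b (0.47) in Cxcl3 monocyte-like cells, Hspa1b in Ndrg1 TAM-like cells (-0.27) and Hspa1b in cycling T-like cells (-0.19). It turned for Hspb1 in regulatory T-like cells (-1.30) with doublets kept, and for Hspb1 in Slamf6 CD4 T-like (1.90), cycling TAM-like (0.94) and interferon-induced TAM-like cells (0.50) without the top 1% of cells. The cause was not tested. In Ndrg1 TAM-like cells the ratios at that limit and without the top 1% were 0.82 and 0.62 for Hspa1a, 0.90 and 1.15 for Hspb1 and 0.66 and 0.82 for Hsph1. Shares of Ndrg1 TAM-like cells with a UMI depend on the depth set: at 2000 UMIs they were 30.4% and 37.7% for Hspa1a and 10.2% and 14.5% for Hspb1, and without thinning 42.9% and 48.6% and 15.2% and 19.7%. In CD4 T cells picked by marker UMIs the ratios of Hspa1a (0.16), Hspa1b (0.68) and Hspb1 (-1.20) had the opposite sign to the clusters, though the interval for Hspa1a (-0.20 to 0.52) included 0.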

Other observations

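Values outside the named classes are given here without explanation. Of the unnamed clusters, one of 217 and 327 cells with few UMIs per cell, led by mitochondrial transcripts, had Hspa1a at 158 CPM in the MWA library and 318 CPM in the MWA plus TIGIT library. A cluster with T cell and myeloid transcripts together was at 59.5 CPM and 397 CPM, and one led by Il22 and Il17a at 27.4 CPM and 118 CPM. A shallow cluster led by Meg3 held 2 and 20 Hspa1a UMIs, and one led by Ctsk, Mmp9 and Acp5 was at 23.2 CPM and 22.0 CPM. In the barcodes left out for mitochondrial UMIs, Hspa1a was at 98.1 CPM and 118 CPM, beside 120 CPM and 133 CPM in the kept cells, and Hspa8 at 853 CPM and 848 CPM, beside 1410 CPM and 1323 CPM. Called doublets had Hspa1a at 116 CPM and 149 CPM.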
